A study of Mus musculus with 4 samples.

Results

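The 10 genes described here are feedback regulators and output genes of the transcription factor NF-kB. They are Saa3, Lcn2, Nfkbia, Nfkbiz, Tnfaip3, Ptgs2, Ptges, Icam1, Il33 and Csf3, chosen by name and found through the RefSeq accession of their array probes. All 10 had a named probe, 11 probes in all, among 21154 genes with a named probe on the array. The cells were primary mouse mesenchymal stromal cells (MSCs, the fibroblast-like cells that can be grown from marrow and other stroma) at passage 5, transduced with retroviral short hairpin RNAs. Cells with a control hairpin (shControl) gave 1 array. Cells with an Islr hairpin (shIslr) gave 3 arrays, each for another of 3 targeted stretches of Islr, which encodes the surface and secreted protein Meflin; they are called hairpins 1, 2 and 3. All 4 groups of cells thus carry a retroviral hairpin, and cells without one are not analysed here. The labels name neither the mouse strain nor the tissue, and do not tell if separate animals gave the cultures. The p-values rest on the spread between the 3 hairpin arrays, drawn toward that of other genes, since the control has 1 array. They cannot be read as measuring a spread between animals.

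NF-kB is held in the cytoplasm by inhibitor proteins of the IkB family. Signals from tumour necrosis factor, interleukin 1 or Toll-like receptors lead to destruction of the inhibitor, and the freed factor turns on inflammatory genes together with its own inhibitors. Nfkbia encodes the inhibitor IkB alpha and Tnfaip3 the ubiquitin-editing enzyme A20, both of which end the response. Nfkbiz encodes IkB zeta, a nuclear cofactor needed for a second wave of target genes. Saa3, a serum amyloid A protein made outside the liver, and Lcn2, an iron-siderophore binding lipocalin, are acute phase genes of that second wave, at which C/EBP factors act together with NF-kB. Ptgs2 (cyclooxygenase 2) and Ptges (microsomal prostaglandin E synthase) make prostaglandin E2, a mediator through which MSCs act on immune cells. Icam1 is an adhesion receptor for leukocytes, Il33 a nuclear alarmin cytokine and Csf3 the granulocyte colony-stimulating factor.

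Promoter sequences from RefSeq (build GRCm38.p6) were searched because these genes are textbook targets of NF-kB and C/EBP factors. The table held 8 of the 10 genes, without Nfkbiz and Csf3, in 10 windows since Il33 and Tnfaip3 have more than 1 start site. Only the 250 bases before each start site were read. The 5 windows below are those of the 3 genes with a window that were higher on all 3 hairpin arrays (Saa3, Lcn2 and Ptgs2) and of the 2 feedback genes with a kB match (Nfkbia and Tnfaip3). Each is written 5′ to 3′ on the gene's strand, and capitals mark a match to the kB consensus or to the C/EBP motif TTGCNNAA on either strand.
Saa3, chr7:46715677-46715926, minus strand: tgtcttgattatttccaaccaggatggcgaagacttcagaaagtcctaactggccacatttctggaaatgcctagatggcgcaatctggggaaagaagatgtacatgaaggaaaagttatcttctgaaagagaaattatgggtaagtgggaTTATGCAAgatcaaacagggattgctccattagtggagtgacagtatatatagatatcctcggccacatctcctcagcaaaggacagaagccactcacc
Lcn2, chr2:32387740-32387989, minus strand: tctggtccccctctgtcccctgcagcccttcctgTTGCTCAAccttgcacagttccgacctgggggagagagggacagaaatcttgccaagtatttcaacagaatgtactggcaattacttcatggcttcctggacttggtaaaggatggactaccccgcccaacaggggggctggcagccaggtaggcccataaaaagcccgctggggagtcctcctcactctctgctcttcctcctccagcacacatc
Ptgs2, chr1:150099781-150100030, plus strand: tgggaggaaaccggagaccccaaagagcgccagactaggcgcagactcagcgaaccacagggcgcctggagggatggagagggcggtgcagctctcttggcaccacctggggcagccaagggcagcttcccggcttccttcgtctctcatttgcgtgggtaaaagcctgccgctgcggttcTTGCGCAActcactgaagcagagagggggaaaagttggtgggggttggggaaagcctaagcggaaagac
Nfkbia, chr12:55492648-55492897, minus strand: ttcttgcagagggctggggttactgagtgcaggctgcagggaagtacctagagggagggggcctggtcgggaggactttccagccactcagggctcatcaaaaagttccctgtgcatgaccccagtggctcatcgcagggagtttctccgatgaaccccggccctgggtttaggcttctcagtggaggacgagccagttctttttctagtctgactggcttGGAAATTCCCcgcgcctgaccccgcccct
Tnfaip3, chr10:19015411-19015660, minus strand: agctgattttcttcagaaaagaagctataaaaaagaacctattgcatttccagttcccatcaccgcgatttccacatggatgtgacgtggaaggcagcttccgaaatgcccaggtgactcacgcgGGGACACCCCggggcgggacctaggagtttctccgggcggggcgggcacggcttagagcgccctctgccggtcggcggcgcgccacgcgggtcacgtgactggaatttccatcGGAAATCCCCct
The C/EBP motif stood in the windows of Saa3, Lcn2 and Ptgs2, at positions -99 to -92, -216 to -209 and -69 to -62 from the start site, and in 1 of the 2 windows of Il33. In all, 9.56% of the 32851 promoter windows in the table held it. The kB consensus matched once in Nfkbia, at -29 to -20, and at 2 places in 1 window of Tnfaip3, at -125 to -116 and at -12 to -3. Of all windows, 7.25% held it. The AP-1 motif TGANTCA, searched on both strands and held by 6.75% of all windows, was found in that same window of Tnfaip3, just before the farther kB match and not overlapping it. The windows of Icam1 and Ptges held none of the 3 motifs. These are matches of letters and not shown sites.

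**Figure D1:**
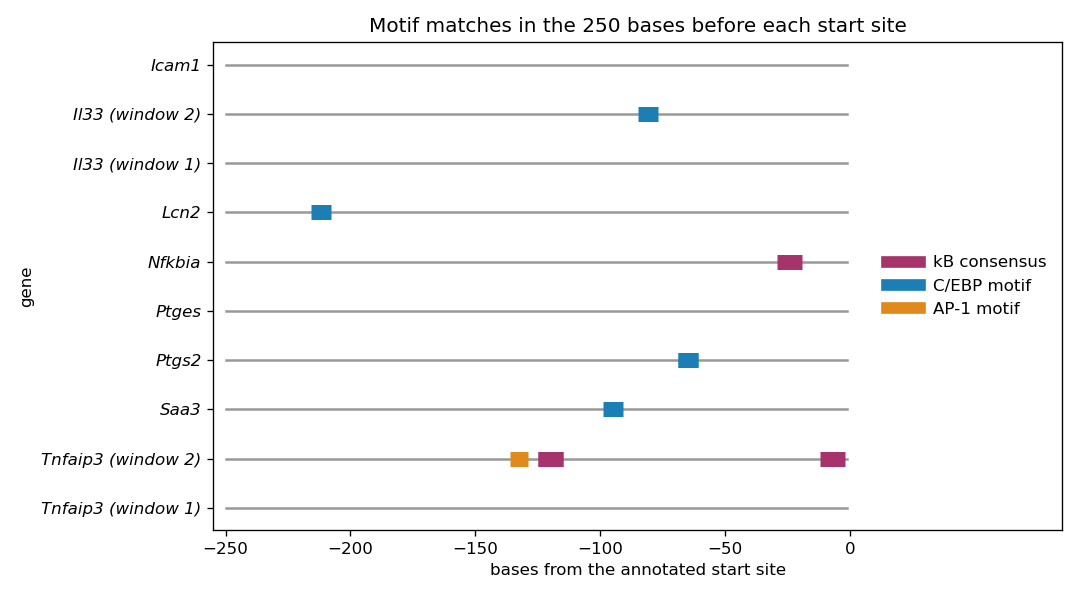
Position of motif matches, in bases from the annotated start site, in the 250 bases before each start site of the 8 genes in the RefSeq table; Il33 and Tnfaip3 have 2 windows each. The C/EBP motif lies in the windows of Saa3, Lcn2, Ptgs2 and 1 window of Il33, and the kB consensus in that of Nfkbia and in 1 window of Tnfaip3.

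Each array gave 1 processed signal per spot, on a linear scale. Differences are log2, hairpin minus control, after division of each array by the 75th percentile of its signals, which lay between 414.7 and 442.5. Between 49.4% and 53.9% of 59305 spots were well above background, and all arrays lay on 1 slide. The number of arrays limits the precision. Islr, the target, measured 454 in control cells and was 6.33-fold lower on hairpin 2. On hairpins 1 and 3 Islr was not well above background, at least 20.5-fold lower on the former and at least 29.6-fold lower on the latter. A bound of this kind, here and below, is taken against the lowest signal called above background on the array, or the probe's own signal where that is higher. All 14 MSC marker genes were above background on all 4 arrays. Of 14 macrophage and monocyte markers 6 were above background on each array, namely Csf1r, Cd68, Itgam, Fcer1g, Cd14 and C1qb. Ptprc, Adgre1, Lyz2, Tyrobp, Mrc1, C1qa, C1qc and Spi1 were so on none. The summed level of these 14, in units of the array's 75th percentile, was 26.9 on the control and 18.3 to 28.7 on the hairpins. Most of this sum came from Itgam. Of 9 neutrophil markers 3 or 4 were above background, with sums of 87.9 on the control and 68.5 to 86.0 on the hairpins, most of it from Csf3r. Their part in the results below was not tested.

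Of the 10 genes, 8 were above background on all 4 arrays. Csf3 was above background on the control array alone and entered the comparison only through it, and Icam1 was below background on every array. Saa3, Lcn2, Ptgs2 and Nfkbiz were higher than the control on all 3 hairpin arrays, Nfkbia, Tnfaip3, Ptges and Il33 lay on both sides of it, and Csf3 was lower on all 3. In limma's test over 13567 genes, with Benjamini-Hochberg adjustment, 0 of the 9 genes tested were called higher (0% of all genes tested) and 1, Csf3, was called lower (0.346% of all). Csf3 could only come out as lower, since the filter let it in through the control array where it is high, so this count says nothing about the 10 genes. With a filter on all 4 arrays, which leaves Csf3 out, limma called 0 of 12722 genes, with 467 at an unadjusted p under 0.05. At an unadjusted p under 0.05 in the main comparison, limma gave 1 higher, Saa3, and 1 lower, Csf3, where 1.52% and 3.31% of all genes had such a p. Of the 9 genes tested, 4 were higher on all 3 hairpins, against 27.6% of all genes, and 1 was lower, against 24.6%. The median of the mean differences was 0.14 over these 9 and 0.01 over all genes tested. All 3 differences of a gene share the single control array, whose own spread is unknown and is taken to equal that between hairpins. Islr, the target, was itself not called (mean difference -4.98 ± 2.19, SD, by signals as they stand; limma adjusted p = 0.964). A gene that limma did not call is thus not shown to be unchanged.

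**Figure D2:**
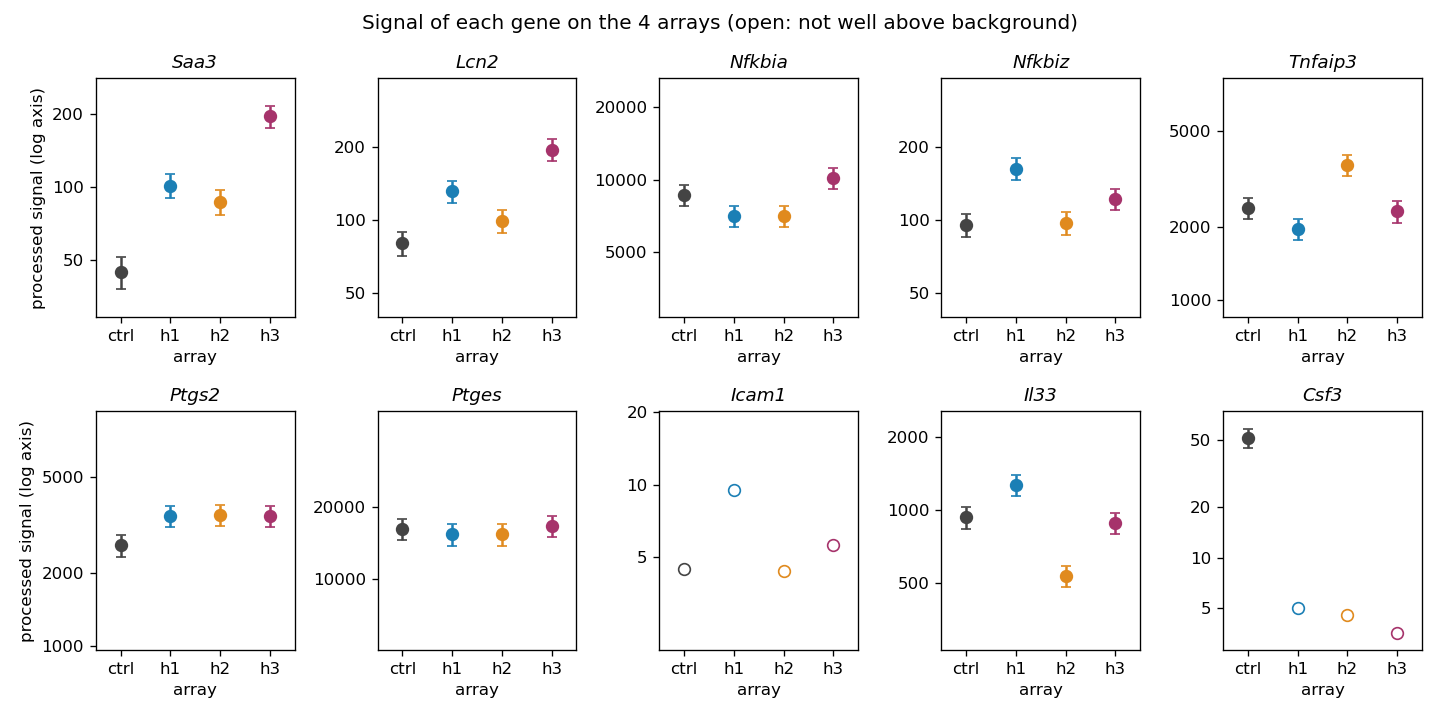
Processed signal (log axis) of each of the 10 genes on the control array (ctrl) and hairpin arrays 1 to 3 (h1 to h3), by the probe used; bars are the scanner software's error of the spot and open points were not well above background. Saa3 goes from 44.4 on the control to 196 on hairpin 3, the Ptgs2 signals of the 3 hairpins nearly coincide, and Csf3 is above background on the control only.

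Saa3, an acute phase gene, had the largest mean difference above the control among the 9 genes tested. Its signal measured 44.4 in control cells and 101, 86.6 and 196 under hairpins 1, 2 and 3. The hairpin arrays all lay above the control by more than the software's error of a spot, which was 6.71 on the control and between 10.1 and 20.0 on the hairpins. Saa3 was thus 2.43-fold, 1.98-fold and 4.50-fold higher, so that hairpin 2 fell just short of 2-fold. The mean log2 difference was 1.48 ± 0.62 (SD, n = 3 hairpins), with a limma standard error of 0.51, an unadjusted p of 0.0386 and an adjusted p of 0.964. Of all genes tested, 99.2%, 98.1% and 99.5% had a lower difference on hairpins 1, 2 and 3. With normexp background correction and quantile normalization the mean difference of Saa3 was 0.77. The probe's sequence was not used here, and whether it also binds RNA of the related Saa genes was not tested.

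Lcn2, the lipocalin gene, measured 80.4 in control cells and 132, 99.5 and 196 under hairpins 1 to 3. As for Saa3, hairpin 3 was highest and hairpin 2 nearest to the control, and the raw gap between hairpin 2 and the control was no larger than their spot errors together. Lcn2 was thus 1.75-fold, 1.26-fold and 2.49-fold higher. The mean log2 difference of Lcn2 was 0.82 ± 0.49 (SD, n = 3), and limma did not call it (adjusted p = 0.964). Of 10 epithelial marker genes, 5 were above background on the control and 4, 5 and 6 on hairpins 1 to 3. Their summed level was 0.871 on the control and 1.43, 1.53 and 3.23 on the hairpins, highest on the array where Lcn2 and Saa3 were highest, and its part in the result was not tested. A signal at least 2-fold higher was found for Saa3 on hairpin 1 (1.46% of all genes tested), for neither gene on hairpin 2 (1.88%), and for both on hairpin 3 (3.17%). None of the 9 genes was at least 2-fold higher on all 3 hairpins (0.236% of all genes). At 1.5-fold, Saa3 was higher on all 3 (0.958% of all genes) and Csf3 lower on all 3 (3.04%).

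The genes nearest to these 2 in their 3 differences were sought among 12716 genes above background on all 4 arrays, by root mean square distance over the 3 hairpins. For Saa3 they were the transcript U90926 (distance 0.22, with differences of 1.29, 0.84 and 1.83), the palmitoyltransferase gene Zdhhc2 (0.26) and the ubiquitin ligase gene Rnf128 (0.28). For Lcn2 they were the MAP kinase phosphatase gene Dusp10 (distance 0.06, with differences of 0.76, 0.37 and 1.23), the tetraspanin-like gene Tm4sf1 (0.08) and the potassium channel subunit gene Kcnmb4 (0.09). Saa3 and Lcn2 lay 0.68 from each other. With 3 differences against 1 control array, such a distance describes these arrays only.

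Both genes whose products end the response lay on both sides of the control. Nfkbia, the IkB alpha gene, measured 8609.7 in control cells and 7056, 7055 and 10136 under hairpins 1 to 3. Hairpins 1 and 2 lay below the control and hairpin 3 above it, with differences of -0.19, -0.26 and 0.27. The mean difference of Nfkbia was -0.06 ± 0.29 (SD, n = 3; limma adjusted p = 0.995), smaller than the spread between hairpins. Tnfaip3, the A20 gene, measured 2388 in control cells and 1961, 3598 and 2320 under hairpins 1 to 3. Only hairpin 2 lay above the control, by 1.53-fold. It was the hairpin on which Saa3 and Lcn2 differed least, and also the one on which Islr was lowered least (6.33-fold). A link between these was not tested. The mean difference of Tnfaip3 was 0.14 ± 0.42 (limma adjusted p = 0.986), and without hairpin 2 it was -0.10.

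Nfkbiz, the IkB zeta gene, measured 95.5 in control cells and 163, 97.6 and 122 under hairpins 1 to 3. Hairpin 1 was highest and hairpin 2 was at the level of the control, within the spot error of 10.5. The differences were 0.86, 0.05 and 0.39, with a mean of 0.43 ± 0.41 (SD, n = 3; limma adjusted p = 0.964). With normexp and quantile normalization, the difference on hairpin 2 was -0.04, so that Nfkbiz was then higher on 2 of 3 arrays.

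**Figure D3:**
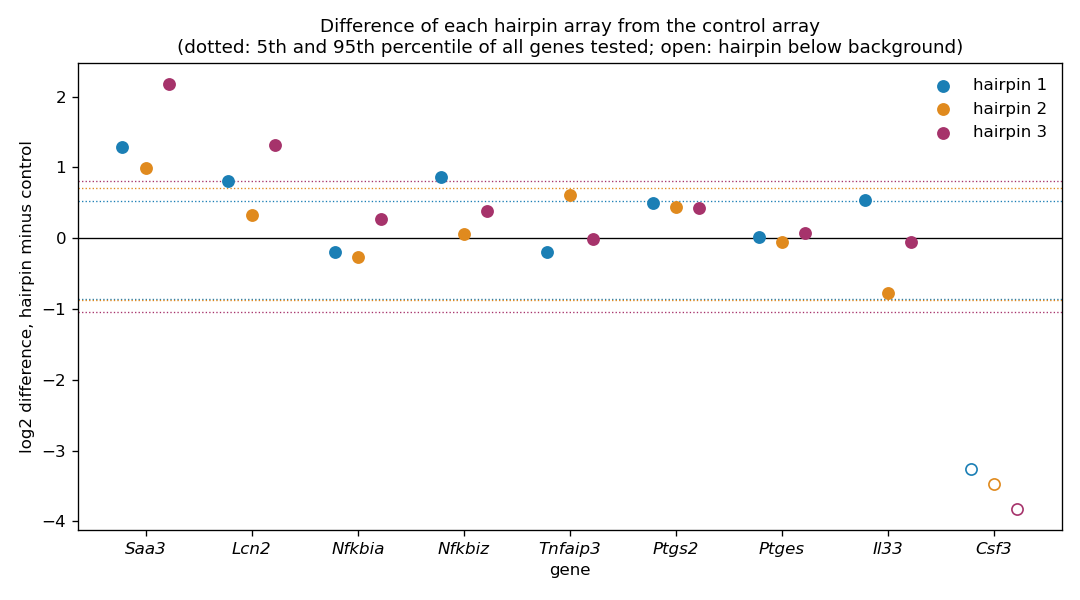
Log2 difference of each hairpin array from the control array for the 9 genes tested, with the 5th and 95th percentiles of all genes as dotted lines in the colour of the hairpin; open points had a hairpin signal below background. Saa3 lies above the 95th percentile on all 3 hairpins, Lcn2 on hairpins 1 and 3, and Nfkbiz and Il33 on hairpin 1.

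Ptgs2, the cyclooxygenase 2 gene, lay above the control by a like amount on each hairpin. Its probe was printed 10 times on each array, so that its values are means of 10 spots. The spots had signals of 2459, 2585 and 2767 (lowest, median and highest) on the control array. They had 3144, 3500 and 3731 on hairpin 1, 3174, 3502 and 3644 on hairpin 2, and 3165, 3455 and 3667 on hairpin 3. Every hairpin spot was thus above every control spot. Spots of an array share 1 RNA sample and are no replicates of the knockdown. Among 244 probes with 10 spots that were above background on all 4 arrays, 11.5% had all hairpin spots above all control spots in the same way, and 8.2% had all of them below. The log2 differences of Ptgs2 were 0.50, 0.44 and 0.43, with a mean of 0.46 ± 0.04 (SD, n = 3), which is 1.37-fold. Limma did not call Ptgs2 (unadjusted p = 0.0585, adjusted p = 0.964), and its standard error, 0.18, is drawn toward that of other genes.

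**Figure D4:**
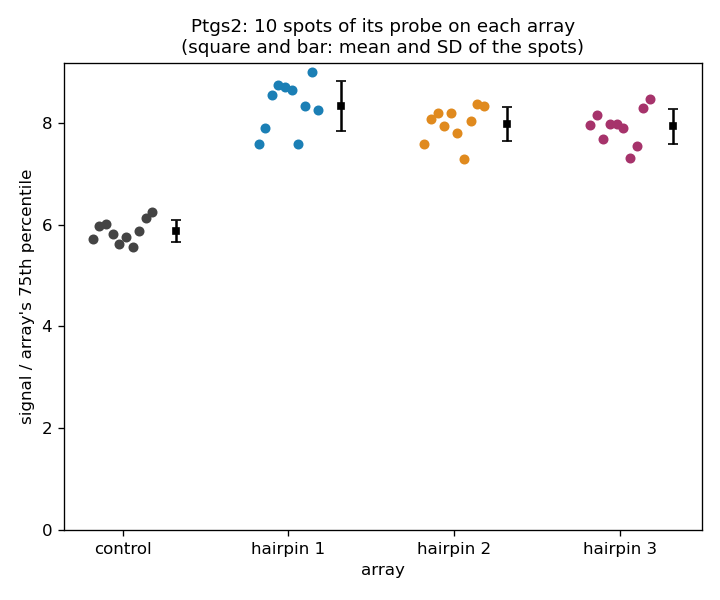
Signals of the 10 Ptgs2 spots on each array, each divided by the array's 75th percentile; squares and bars are the mean and SD of the spots. The control spots lie between 5.56 and 6.25 and the hairpin spots between 7.29 and 8.99.

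Ptges, the synthase that acts after cyclooxygenase 2, had 2 probes that did not show the same pattern. The brighter one measured 16217 in control cells and 15338, 15340 and 16640 under hairpins 1 to 3, a mean difference of 0.01 ± 0.06 (SD, n = 3; limma adjusted p = 0.998). The dimmer one had signals of 430 on the control and 528, 339 and 306 on the hairpins. Its differences were 0.39, -0.32 and -0.46, so hairpin 1 lay above and hairpins 2 and 3 below the control. The brighter probe stood for Ptges in the test.

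Il33, the alarmin gene, lay on both sides of the control. Its signal measured 933 in control cells and 1273, 536 and 883 under hairpins 1 to 3. Hairpin 1 was 1.46-fold higher, hairpin 2 was 1.71-fold lower and hairpin 3 was at the control level. The mean difference of Il33 was -0.09 ± 0.66 (SD, n = 3; limma adjusted p = 0.996), and without hairpin 2 it was 0.25. The gene of its receptor, Il1rl1, measured 18683 in control cells and 14664, 10772 and 5060 under hairpins 1 to 3. Il1rl1 was lower on all 3, with a mean of -0.96 ± 0.82 (limma adjusted p = 0.964). It is also on the list of 9 mast cell and basophil markers, whose summed level, most of it from Il1rl1, was 42.8 on the control and 36.3, 25.5 and 12.2 on the hairpins.

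Csf3, the granulocyte growth factor gene, was above background in control cells only. Its control signal was 51.7, with a spot error of 6.98, and it measured 5.04, 4.59 and 3.58 on hairpins 1 to 3, none of them well above background. Csf3 was therefore lower by at least 2.33-fold on hairpin 1, by at least 2.67-fold on hairpin 2 and by at least 3.37-fold on hairpin 3, and at least 2.76-fold lower over the 3. Limma's adjusted p was 0.0392, from signals as they stand (mean log2 difference -3.52 ± 0.28, which is no bound). It sets 1 control spot against 3 signals below background, whose spread is not that of a measured level, and is given as a description. Csf3 was 2-fold lower on all 3 hairpins by these signals, as were 1.69% of all genes tested (229 genes). That share includes other genes let in through the control array. With the filter on all 4 arrays, which leaves Csf3 out, 40 of 12722 genes were 2-fold lower on all 3. The adjusted p passed the threshold no more with normexp and quantile normalization (mean difference -0.78, adjusted p = 0.735), without any 1 of the hairpins (0.0791 to 0.164), with an intensity trend (0.334) and with no filter (0.120). The gene of its receptor, Csf3r, was at -0.15 ± 0.20 (limma adjusted p = 0.973).

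Icam1, the leukocyte adhesion receptor gene, measured 4.50 in control cells and 9.46, 4.40 and 5.62 under hairpins 1 to 3. None was well above background by its 1 named probe, so no difference was taken. In bulk RNA of this kind, for Icam1 and for all genes here, fewer cells that express a gene and less RNA per cell cannot be told apart.

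The other genes of the pathway were taken from lists, and limma called no gene of any list. Counts of list genes higher or lower on all 3 hairpins, here and below, stand beside 27.6% and 24.6% of all genes tested. At an unadjusted p under 0.05 it gave Ptx3 higher and Il1rn and Icam5 lower. Il1rn, like Csf3, entered the comparison only through the control array, where it is high, so its p is given as a description. Of the 4 NF-kB subunit genes tested, Nfkb2 was higher on all 3 hairpins (0.17 ± 0.09) and none was lower. Rela, the main activating subunit, was at -0.01 ± 0.09, and Rel was below background on all 4 arrays. Of 4 other IkB genes, Nfkbib was higher on all 3 hairpins (0.43 ± 0.19). Of 15 other feedback genes, such as ubiquitin regulators, 2 were higher on all 3 (Tnip2 at 0.16 ± 0.13 and Tax1bp1 at 0.09 ± 0.11), 1 was lower (Otud7b at -0.34 ± 0.29) and 12 went both ways. Of 23 adaptor and kinase genes, 6 were higher and 2 lower on all 3, led by the interleukin 1 receptor kinase gene Irak2 (0.39 ± 0.14) and by Ticam1 (-0.25 ± 0.13). The medians of these 4 lists lay between 0.04 and 0.07, beside 0.01 for all genes, and between -0.16 and 0.18 when 1 hairpin was left out. In none of these 4 lists did a gene reach an unadjusted limma p under 0.05 in either direction.

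Receptors and ligands were mixed. Of 17 receptor genes tested, 4 lay above the control on all 3 hairpins and 4 below. Their median was -0.16, but 0.0077 without hairpin 2 and -0.049 with normexp and quantile normalization, and 0.03, -0.11 and 0.07 on hairpins 1 to 3. The Toll-like receptor gene Tlr2 was at 0.77 ± 0.58, its co-receptor gene Cd14 at 0.56 ± 0.18 and the RNA sensor gene Tlr3 at 0.56 ± 0.54, while Tlr1 was at -0.67 ± 0.61 and the tumour necrosis factor receptor gene Tnfrsf1a at -0.17 ± 0.05. Among 13 ligand genes 6 were tested, with a median of -0.83 that rests on signals below background. It was -0.12 with the filter on all 4 arrays, -0.054 with no filter and -0.20 with normexp and quantile normalization. Tnf, Il1b, Il17a, Il17f and Cd40lg were below background on all 4 arrays. The interleukin 1 receptor antagonist gene Il1rn, whose protein blocks interleukin 1 signalling, measured 163 in control cells and 55.0, 21.1 and 19.3 under hairpins 1 to 3. Il1rn was below background on hairpin 2 (at least 7.62-fold lower there), at least 5.60-fold lower over the 3 hairpins, and did not pass limma (adjusted p = 0.847). Il18 and Il1a were also lower on all 3 hairpins, Il18 at least 2.74-fold and Il1a at least 1.44-fold over the 3, both partly from signals below background. Of the 6 tested, 4 in all were lower on all 3 hairpins, 1 was higher and 1 went both ways. The higher one, Tnfsf11, was above background on all 4 arrays, with differences of 1.54, 0.16 and 0.01 on hairpins 1 to 3. The filter let Il1rn, Il18 and Il1a in only through the control array, where they are high, and so favoured a lower outcome for them.

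Other NF-kB targets of stromal cells had a median of 0.23, with 8 of 21 higher on all 3 hairpins, 1 lower and 12 both ways. Of all genes tested, 27.6% were higher and 24.6% lower on all 3. The median was 0.32, 0.03 and 0.35 on hairpins 1 to 3, and 0.062 without hairpin 1. The cytokine gene Il6 had signals of 109 on the control and 906, 203 and 1077 on the hairpins. Its mean difference was 2.47 ± 1.34 (SD, n = 3), and limma did not call it (adjusted p = 0.964). Ptx3, a long pentraxin gene, had 190 on the control and 519, 595 and 1379 on the hairpins, a mean difference of 2.04 ± 0.74. The chemokine gene Ccl2 was at 1.04 ± 0.52. Il6 was nearest to the control on hairpin 2 and Ptx3 on hairpin 1. Ptx3 had the single unadjusted limma p under 0.05 of this list (adjusted p = 0.900). The matrix-binding gene Tnfaip6 was the 1 that was lower on all 3 (-0.33 ± 0.20).

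Other acute phase genes lay mostly on both sides of the control. Of 12 tested, 2 were higher on all 3 hairpins (Itih4 at 0.31 ± 0.04 and Saa1 at 0.14 ± 0.13), none was lower and 10 went both ways. Their median was 0.04, and -0.10 without hairpin 1. A further 11 were below background on all 4 arrays, among them the liver genes Crp, Apcs and Orm1. Among C/EBP and STAT3 genes, 1 of 10 was higher on all 3 hairpins (Cebpa at 0.18 ± 0.24) and 2 were lower (Stat3 at -0.37 ± 0.25 and Il6ra at -0.11 ± 0.07). Cebpd, a C/EBP gene that is itself induced in the acute phase and was named after its values were seen, measured 9206 in control cells and 25905, 7252 and 40605 under hairpins 1 to 3. Cebpd was higher on hairpins 1 and 3 by 1.59 and 2.17 and lower on hairpin 2 by -0.32. Cebpb was at -0.04 ± 0.35.

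In the prostaglandin pathway, 5 of 16 genes lay above the control on all 3 hairpins and 4 below. Their median was 0.16, but 0.039 without hairpin 1, and 0.21, -0.10 and 0.06 on hairpins 1 to 3. The constitutive cyclooxygenase gene Ptgs1 measured 9643 in control cells and 14289, 13045 and 20488 under hairpins 1 to 3. Ptgs1 was thus higher on all 3, like Ptgs2, by a mean of 0.75 ± 0.34 (limma adjusted p = 0.964). The prostaglandin transporter gene Slco2a1 was at 0.54 ± 0.54 and the synthase gene Ptges2 at 0.17 ± 0.07. The prostacyclin synthase gene Ptgis (-0.42 ± 0.20), the prostaglandin F receptor gene Ptgfr (-1.06 ± 0.47) and the carbonyl reductase gene Cbr1 (-0.23 ± 0.02) were lower on all 3. Of 7 adhesion genes related to Icam1, Vcam1 was higher on all 3 hairpins (0.50 ± 0.19) and 4 were lower, among them Icam5 (-0.85 ± 0.28) and the integrin gene Itgb2 (-0.63 ± 0.43). Their median was -0.28, and -0.14 with normexp and quantile normalization. Among 7 receptor genes for the secreted proteins, Tlr2 was higher and 3 were lower on all 3 hairpins, Il1rl1, Csf3r and the Lcn2 receptor gene Slc22a17 (-0.68 ± 0.47).

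**Figure D5:**
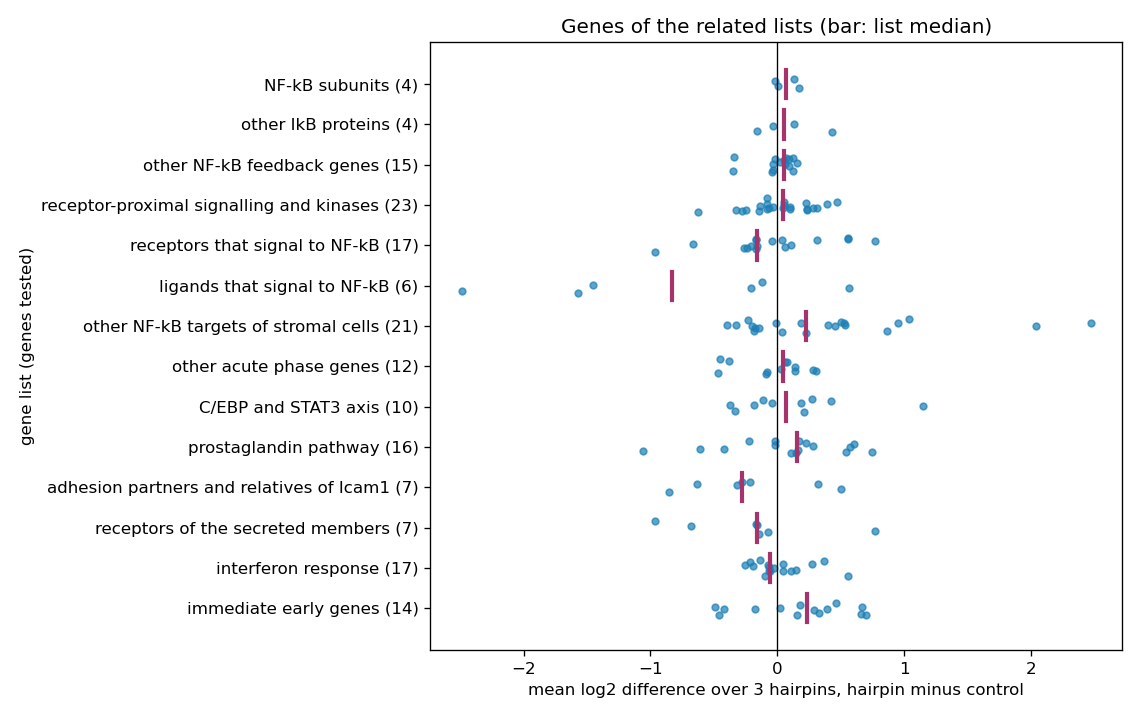
Mean log2 difference over the 3 hairpins (hairpin minus control) of each tested gene in the related lists, with the number tested in brackets and the list median as a bar. The ligand median of -0.83 rests on 3 genes partly below background on the hairpins (-0.12 with a filter on all 4 arrays), and the other medians lie between -0.28 and 0.24.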

How the data were processed

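Total RNA was labelled with Cy3 and hybridised to 4 one-colour arrays. Per the file headers, the authors extracted the signals with Agilent Feature Extraction 11.5.1.1 (array design 028005, build mm9). The deposited processed signal intensity is background-subtracted and detrended array by array. The series table, also deposited, held this intensity times 1 constant per array, whose choice is not stated. Spots of 1 probe were averaged as log2 values and each array was divided by its 75th percentile. Accessions were matched without version to RefSeq (GRCm38.p6), which named 28026 of 55681 probes. Probes were kept if well above background for the control or for all 3 hairpins, and the brightest kept probe stood for a gene. Limma 3.58.1 in R 4.3.3 (lmFit, eBayes, two-sided, Benjamini-Hochberg, threshold 0.05) compared the 3 hairpins with the control. The fit was also run on simulated data that gave every gene and array, the control included, the same spread. That run therefore cannot tell if the control varies like the hairpins. Members, lists, named genes and tests were chosen with earlier results of these data known. From each list, up to 3 higher and 3 lower genes with the largest smallest difference were named, the genes nearest in pattern to a member were named where it was at least 1.5-fold higher or lower on average and of 1 sign, and further genes are said to be named after their values were seen. Alternatives, with normexp run on median spot signals, are in the closing section.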

Additional observations from a re-analysis of the deposited data

How the results depend on the processing

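No paired analysis was possible because the control has a single array with no number in its label. Limma called 47 genes, 75 with quantile normalization and 83 at a threshold of 0.10, of which 2 were higher. It called 0 with normexp and quantile normalization, with no filter, with a filter on all 4 arrays, with an intensity trend and without each hairpin (0 to 0), where an unadjusted p under 0.05 was found for 674, 854, 467 and 646 genes and, without a hairpin, for 579 to 796. Of the 10 genes, limma called 1, and 0 in these same alternatives (0 to 0 without a hairpin), since Csf3 was lost. At least 2-fold lower on all 3 hairpins was 1 gene, and 0 with normexp and quantile normalization or with the filter on all 4 arrays, which leaves Csf3 out. At least 2-fold higher was 0, and 1 (Saa3) with a 1.5-fold rule and without hairpin 2 (0 to 1 over the hairpins left out). The sign of the mean turned for Ptges (-0.049 with quantile normalization, -0.058 with normexp and quantile normalization, -0.062 over its kept probes) and, with a hairpin left out, for Ptges (-0.022 to 0.040; without hairpin 3), Nfkbia (-0.23 to 0.036; without hairpin 1 or 2), Tnfaip3 (-0.10 to 0.30; without hairpin 2) and Il33 (-0.41 to 0.25; without hairpin 2); the cause was not tested. Over 12 alternatives the mean was 0.77 to 1.73 for Saa3, 0.54 to 1.06 for Lcn2, 0.42 to 0.47 for Ptgs2 and 0.22 to 0.62 for Nfkbiz. Signals near background limit Csf3 and Icam1.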

Other observations

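Interferon response genes, which answer to viral RNA and to type I interferon, had a median difference of -0.06 over 17 tested genes (0.076 without hairpin 2), with 3 higher on all 3 hairpins, 2 lower and 12 both ways, and limma called none (0 at an unadjusted p under 0.05). The antiviral gene Rsad2 was at 0.27 ± 0.24 (SD, n = 3). The ubiquitin-like gene Isg15 measured 73796 in control cells and 78940, 74840 and 77017 under hairpins 1 to 3.

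Immediate early genes, which respond within minutes to growth factors and handling, had a median of 0.24 over 14 tested genes, but -0.040 without hairpin 3, and -0.04, 0.07 and 0.49 on hairpins 1 to 3. They counted 5 higher on all 3 hairpins, 2 lower and 7 both ways, and limma called none (0 at an unadjusted p under 0.05). Nr4a1, an orphan nuclear receptor gene, was at 0.67 ± 0.46 (SD, n = 3) and the AP-1 gene Fosl1 at 0.66 ± 0.32. Egr1, a growth factor response gene, was at -0.49 ± 0.19 and Fos at -0.42 ± 0.61, with hairpin 2 lowest in both.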
